A study of Mus musculus with 9 samples.

Results

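The Hox genes are the homeobox transcription factors of the Hoxa, Hoxb, Hoxc and Hoxd clusters. They were taken here as every protein-coding gene of the deposited expression table whose name is Hoxa, Hoxb, Hoxc or Hoxd followed only by digits. This gave 39 genes, in 40 rows because Hoxd4 was listed under 2 identifiers, of 54532 genes in the table, 22046 of them protein-coding. The rule itself used no measured value, but the genes were chosen with earlier results of these data known. RNA of mouse duodenum tissue, depleted of ribosomal RNA, was sequenced in 3 libraries for each of 3 groups. CeD+GR mice were a delayed-type hypersensitivity (DTH) model of celiac disease, the enteropathy driven by gluten. They received gliadin-rapamycin composite nanoparticles beforehand and then enhanced gluten stimulation. Gliadin is a fraction of the gluten proteins, and rapamycin inhibits the kinase mTOR. CeD mice were the same DTH model with enhanced gluten stimulation and no nanoparticles. Control mice were wild type with non-enhanced gluten stimulation, so they differ from CeD mice in both the model and the stimulation. All 3 groups received gluten in some form. The labels give no strain, age, dose or time, and do not say whether the libraries of a group come from separate animals, so the p-values measure the spread between these libraries, which may be technical.

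Hox genes lie in 4 clusters, and genes at the same place in different clusters form paralogue groups numbered 1 to 13. Low numbers are expressed towards the head of the embryo and high numbers towards the tail, in the order in which the genes lie on the chromosome. In the gut their expression is best known from the mesenchyme, the smooth muscle and connective tissue layer, and from the neurons that colonise it, where it marks position along the tube. Hox proteins bind DNA together with cofactors of the TALE class (Pbx and Meis). Retinoic acid and the caudal-type factors Cdx act on the clusters from above, and Polycomb and Trithorax complexes keep their off and on states.

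Promoters of 4 members are shown to set the region just before the start of members that were read abundantly beside that of members read rarely or not at all. Hoxa5 and Hoxb4 had the highest mean levels, Hoxb8 is a member of a higher paralogue group that was high in 1 library, and Hoxa13 had no reads. Each sequence is the 250 bases before the gene's start from RefSeq, build GRCm38.p6, written 5′ to 3′ on the gene's strand. They lie at chr6:52204588-52204837 (minus strand) for Hoxa5, chr11:96318017-96318266 (plus strand) for Hoxb4, chr11:96281655-96281904 (plus strand) for Hoxb8 and chr6:52260881-52261130 (minus strand) for Hoxa13. Capitals mark matches, on either strand, to the motifs searched, and Hoxb4 had none.
Hoxa5: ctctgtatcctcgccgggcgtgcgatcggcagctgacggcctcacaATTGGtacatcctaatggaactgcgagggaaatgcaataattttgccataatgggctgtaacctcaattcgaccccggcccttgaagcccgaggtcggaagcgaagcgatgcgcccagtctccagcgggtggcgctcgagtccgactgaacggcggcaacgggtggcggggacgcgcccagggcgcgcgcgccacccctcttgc
Hoxb4: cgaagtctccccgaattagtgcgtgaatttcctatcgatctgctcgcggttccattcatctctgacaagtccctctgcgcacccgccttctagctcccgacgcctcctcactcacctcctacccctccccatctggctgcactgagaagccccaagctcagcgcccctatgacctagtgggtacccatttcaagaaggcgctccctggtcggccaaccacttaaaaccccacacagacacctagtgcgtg
Hoxb8: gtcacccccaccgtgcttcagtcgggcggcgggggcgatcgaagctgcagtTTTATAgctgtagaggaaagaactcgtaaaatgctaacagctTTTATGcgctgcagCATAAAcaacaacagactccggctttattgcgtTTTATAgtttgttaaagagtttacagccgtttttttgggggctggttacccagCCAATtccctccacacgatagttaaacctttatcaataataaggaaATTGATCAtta
Hoxa13: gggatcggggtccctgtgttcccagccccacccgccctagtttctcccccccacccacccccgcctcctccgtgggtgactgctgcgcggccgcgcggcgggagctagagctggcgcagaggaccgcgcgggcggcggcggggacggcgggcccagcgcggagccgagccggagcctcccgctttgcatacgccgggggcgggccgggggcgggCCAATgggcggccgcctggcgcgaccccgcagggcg

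Such a window was found for 22 of the 39 members, 24 windows in all, against 32851 windows over all genes. The motifs were TGATNNAT (Hox with Pbx), CTGTCA (Meis), TTTATG (Cdx), the direct repeat bound by retinoic acid receptors, CCAAT and TATAAA, searched on both strands, and no match to one lay inside a match to another in the sequences shown. CCAAT was in 14 of the 24 Hox windows, against 33.8% of all windows. TTTATG was in 5, those of Hoxa7, Hoxb8, Hoxd3, Hoxd4 and Hoxd11, against 10.8% of all. TGATNNAT was in 4, those of Hoxa2, Hoxb1, Hoxb8 and Hoxd11, against 7.68% of all. CTGTCA was in 2, those of Hoxa2 and Hoxa3, against 15.9% of all. TATAAA was in 4, against 12.4% of all, and the direct repeat in 0, against 0.00913% of all. Of the sequences shown, that of Hoxb8 held the TGATNNAT match 11 bases and a CCAAT match 57 bases before its start. A pair of TTTATG matches lay further upstream at 143 and 157 bases. TATAAA matches on the opposite strand, printed as TTTATA, lay at 110 and 199 bases. The Hoxa5 and Hoxa13 sequences held 1 CCAAT match each, 204 and 36 bases before the start. The dinucleotide CG occurred 28 times in the Hoxa5 sequence and 35 times in that of the unread Hoxa13, and 14 and 12 times in those of Hoxb4 and Hoxb8. Its median was 12.5 per Hox window and 6 per window over all genes. A match of letters is a description of the window and not a binding site.

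Each library goes by its group and its replicate number. They held 15373260 to 16852104 reads assigned to genes, recovered from the deposited FPKM (fragments per kilobase of gene length, scaled to sequencing depth), so that levels can be compared between genes. Epithelial markers were abundant in every library, at 4073 to 6922 summed FPKM over 10 of 10 genes, so each held epithelium. This list does not tell duodenum from other parts of the gut. Several libraries stood apart. CeD+GR 3 had 140691 summed FPKM of 9 stomach markers, against at most 52.2 in any other library. CeD 1 had 3225 summed FPKM of 8 exocrine pancreas markers, against at most 45.4 elsewhere. The replicate 1 libraries had 1004 to 2000 summed FPKM of 6 Paneth cell markers, against 71.3 to 170.2 in the others. CeD+GR 2 had 187 summed FPKM of 5 adipocyte markers, against 35.2 to 80.7 elsewhere. Nearly all of the sum elsewhere was Cidec, at 35.2 to 78.1 FPKM. Pdx1, the factor that marks duodenum and pancreas, was at 0.118 FPKM in CeD+GR 2 and 1.59 FPKM in CeD+GR 1, against 6.64 to 46.0 FPKM in the other 7 libraries. In bulk tissue, fewer cells of a type and less RNA per cell cannot be told apart, and this holds for every level below.

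Hox transcripts were scarce in the duodenum and came mostly from paralogue groups 4 and 5. Of the 39 genes, 32 had at least 1 read in the 9 libraries, and all Hox genes together took 6381 reads. The 7 with none were Hoxa11, Hoxa13, Hoxb13, Hoxc12, Hoxd10, Hoxd12 and Hoxd13, each from paralogue groups 10 to 13. A gene with no read can still be present below the level that 3 reads stand for, which was 0.0667 to 0.0784 FPKM for Hoxa13 in the replicate 1 libraries. These limits, like the intervals below, cover counting error only. Another 7 genes had 10 or fewer reads in all: Hoxb1, Hoxb9, Hoxc9, Hoxc10, Hoxc13, Hoxd1 and Hoxd4. 9 genes averaged 0.5 FPKM or more across all libraries, the level needed to enter the tests. They were 4 of Hoxa (Hoxa2 to Hoxa5), 4 of Hoxb (Hoxb4 to Hoxb7) and Hoxc4. The Hoxd cluster had none. By rows of the table, 22.5% of Hox rows passed this filter, against 56.2% of protein-coding rows and 22.0% of the 191 other genes of the homeobox family.

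By cluster, Hoxa gave 49.6% of the summed Hox FPKM over all libraries, Hoxb 36.9%, Hoxc 11.4% and Hoxd 2.18%. Read by paralogue number, most of the summed FPKM lay in 2 neighbouring groups, with 33.3% in group 4 and 33.3% in group 5. Group 6 held 10.1%, group 2 held 6.80% and group 3 held 4.64%. Groups 7 and 8 held 4.34% and 4.08%. Group 9 held 1.24%, group 10 held 0.84%, group 11 held 0.38%, group 12 held 0% and group 13 held 0.06%, the last from 4 reads of Hoxc13.

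**Figure D1:**
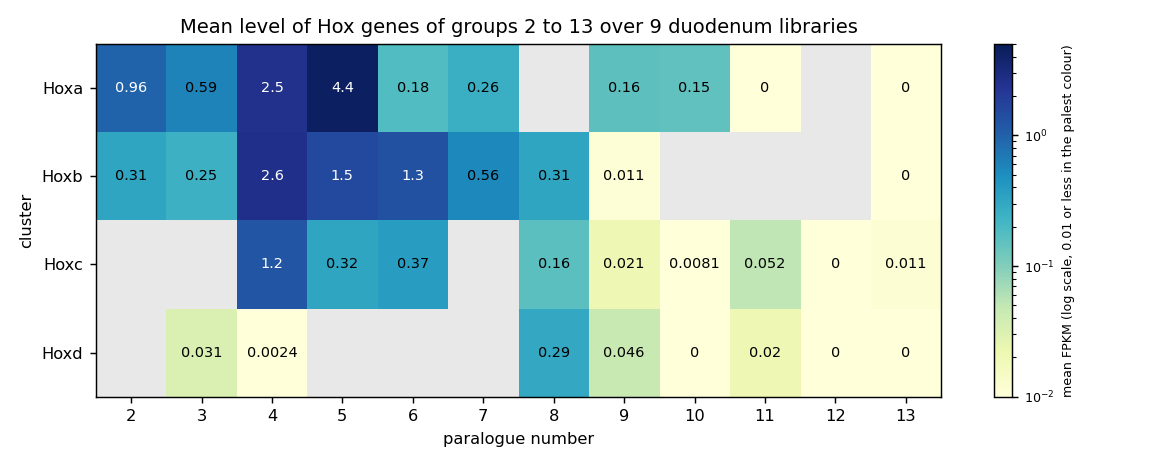
Mean FPKM of the Hox genes of paralogue groups 2 to 13 over the 9 libraries, with clusters as rows and paralogue numbers as columns; colour is on a log scale and grey squares are places with no protein-coding Hox gene. The highest means are those of Hoxa5, Hoxb4 and Hoxa4, at 4.39, 2.56 and 2.49 FPKM, and the columns from 9 onwards are all under 0.2 FPKM.

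Hoxa5 (chr6:52201754-52204587, minus strand, mm10) had the highest mean, 4.39 FPKM. Hoxa5 patterns the lung and gut mesenchyme of the mouse. Its level was 2.20, 8.63 and 0.293 FPKM in CeD+GR libraries 1 to 3, 2.57, 4.10 and 9.25 FPKM in CeD libraries and 2.46, 5.71 and 4.33 FPKM in control libraries. The CeD+GR libraries spanned nearly the whole range on their own, and the 3 groups overlapped. The lowest value, in CeD+GR 3, rested on 9 reads, and the highest, in CeD 3, on 286.

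Hoxb4 (chr11:96318267-96321638, plus strand), known for its role in blood stem cells as well as in patterning, came next with a mean of 2.56 FPKM. It had 1.06, 4.08 and 0.930 FPKM in CeD+GR, 1.25, 1.97 and 3.88 FPKM in CeD and 1.58, 4.15 and 4.16 FPKM in control libraries. Its neighbour by level, Hoxa4 (chr6:52189671-52191753, minus strand), had 0.810, 4.38 and 0.806 FPKM in CeD+GR, 1.51, 2.09 and 5.79 FPKM in CeD and 2.27, 2.57 and 2.19 FPKM in control libraries. The order of Hoxb4 and Hoxa4 changed between libraries, so their means do not set one above the other. Of the exonic bases of Hoxa4, 16.0% overlap a transcript on the opposite strand, and the strand setting of the authors' counting is not given in the sources used here. Hoxa5, Hoxb4, Hoxb6, Hoxb7 and Hoxc4 have no such overlap in the annotation GENCODE M21.

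Hoxb5 (chr11:96303336-96306121, plus strand), which acts in the precursors of the enteric nervous system, had 0.371, 2.05 and 0.198 FPKM in CeD+GR, 0.845, 1.37 and 3.57 FPKM in CeD and 1.24, 1.94 and 2.32 FPKM in control libraries. The next gene of that cluster, Hoxb6 (chr11:96292476-96301569, plus strand), had 0.460, 4.40 and 0.0311 FPKM in CeD+GR, 0.428, 1.94 and 2.44 FPKM in CeD and 0.364, 1.56 and 0.483 FPKM in control libraries. Within CeD+GR, Hoxb6 thus stood at 136 reads in library 2 and 1 read in library 3. Hoxb7 (chr11:96286623-96290162, plus strand) had 0.544, 2.59 and 0 FPKM in CeD+GR, 0, 0.494 and 0.943 FPKM in CeD and 0.249, 0.221 and 0 FPKM in control libraries. It had no read in 1 library of each group, and groups overlapped for all 3 of these genes.

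Hoxc4 (chr15:103018934-103036852, plus strand), the lowest-numbered gene of its cluster, had 0.754, 3.07 and 0.214 FPKM in CeD+GR, 0.480, 0.703 and 2.81 FPKM in CeD and 0.449, 1.52 and 0.762 FPKM in control libraries. Hoxa3 (chr6:52169062-52213336, minus strand), needed for the thymus and parathyroid, had 0.225, 1.14 and 0.254 FPKM in CeD+GR, 0.382, 0.808 and 1.07 FPKM in CeD and 0.356, 0.466 and 0.651 FPKM in control libraries. Both were again highest in CeD+GR 2 and next highest in CeD 3. Of the exonic bases of Hoxa3, 25.4% overlap transcripts on the opposite strand.

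Hoxa2 (chr6:52162417-52164831, minus strand), which patterns the hindbrain and the second branchial arch, was the member with the least spread. It had 0.509, 0.715 and 0.448 FPKM in CeD+GR, 0.821, 1.06 and 1.91 FPKM in CeD and 0.835, 1.31 and 1.07 FPKM in control libraries. All 3 CeD+GR values lay below all 6 others. They rested on 14, 20 and 13 reads, against 26 to 56 reads in CeD and 27 to 34 reads in control libraries, and 15.0% of its exonic bases are shared with the predicted gene Gm28308 on the same strand.

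**Figure D2:**
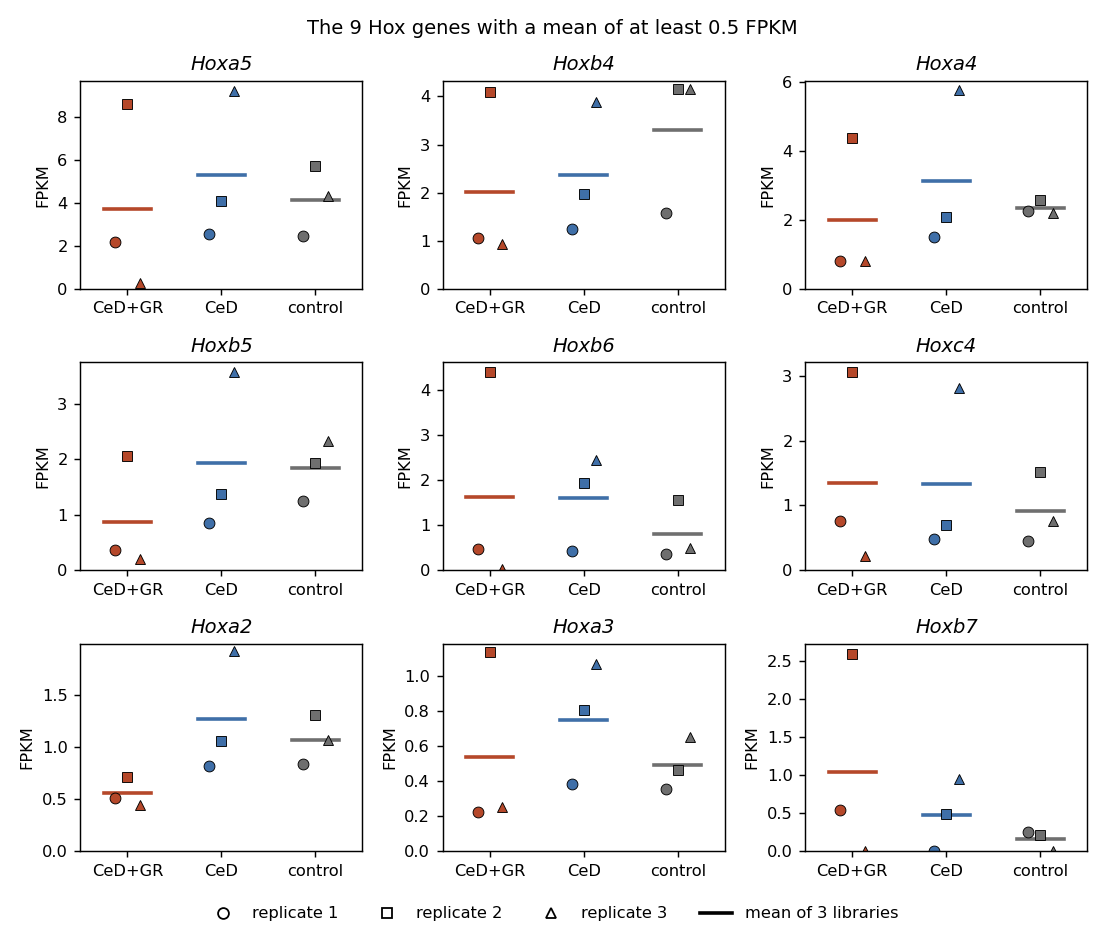
FPKM of the 9 Hox genes averaging 0.5 FPKM or more, 1 point per library (linear axes that start at 0, marker shape for the replicate number) and a line for each group's mean of 3 libraries. CeD+GR 2 and CeD 3 are at or near the top in most panels, and CeD+GR 3 is lowest in 7 of 9 and level with 2 other libraries at 0 for Hoxb7, while Hoxa2 is the panel in which all CeD+GR points lie below the others.

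The remaining 23 genes with reads stayed below 0.5 FPKM on average. Hoxb2 lay between 0.051 and 0.783 FPKM and Hoxb3 between 0.0482 and 0.757 FPKM, and 27.3% and 52.9% of their exonic bases overlap Hoxb3os on the opposite strand. Hoxc5 and Hoxc6 averaged 0.320 and 0.372 FPKM. Hoxd8 was the one Hoxd gene above 0.05 FPKM on average, at 0.400, 0.625 and 0.0892 FPKM in CeD+GR, 0.143, 0.202 and 0.243 FPKM in CeD and 0.460, 0.199 and 0.281 FPKM in control libraries. Hoxd8 had 118 of the 169 reads of its cluster.

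The largest differences were between libraries of one group rather than between groups. Summed over all Hox genes, the level was 9.31, 40.8 and 3.84 FPKM in CeD+GR, 9.95, 17.9 and 36.3 FPKM in CeD and 11.5, 22.3 and 17.3 FPKM in control libraries. As means this is 18.0 ± 19.9 FPKM in CeD+GR, 21.4 ± 13.5 FPKM in CeD and 17.0 ± 5.41 FPKM in control libraries (SD, n = 3 each), with group means closer than the spread in any group. Within a group, the standard deviation of log2(FPKM + 0.5) had a median of 0.81 over the 9 tested members, between 0.31 for Hoxa2 and 1.17 for Hoxa5. Over all 14683 genes tested the median was 0.44, and over the 7183 genes in the same range of mean levels it was 0.47.

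CeD+GR 2 held the highest value of 20 of the 32 genes with reads, and CeD 3 that of 6. For CeD+GR 2 these were 13 of the 17 read genes of paralogue groups 6 to 13 and 7 of the 15 of groups 1 to 5. All 6 genes that were highest in CeD 3 belong to groups 1 to 5. Hoxc8 had 1.03 FPKM in CeD+GR 2, 5.47 times the next library. Hoxa6, Hoxb7 and Hoxb8 were 3.18, 2.75 and 2.62 times the next library there. Hoxb8 had 65 reads in CeD+GR 2, against 0 to 26 in the other 8 libraries. Hoxb1, Hoxb9 and Hoxd1 had reads in CeD+GR 2 alone, 9, 4 and 4 of them. Hoxa10 was highest in CeD 2 at 0.382 FPKM, and Hoxd9 in control 3 at 0.194 FPKM, with 7 reads. In CeD+GR 2 all 5 adipocyte markers were also highest, with Cidec at 146 FPKM, Adipoq at 26.6 FPKM, Retn at 8.24, Plin1 at 4.11 and Lep at 2.10 FPKM. Elsewhere Adipoq was at most 1.51 FPKM and Lep was listed at 0 in all 8 libraries. The part of adipose RNA in these Hox levels was not tested. CeD+GR 3 stood at the other end, with 160 Hox reads and Hoxb4 rather than Hoxa5 in front, beside the stomach markers given above.

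Hox levels moved with the level of gut wall markers in several libraries and not in others. The sum of 10 smooth muscle markers, all 10 of them tested, was 154, 420 and 557 FPKM in CeD+GR, 312, 606 and 1158 FPKM in CeD and 370, 529 and 550 FPKM in control libraries. The sum of 10 enteric neuron and glia markers was 7.45, 19.95 and 10.5 FPKM in CeD+GR, 12.5, 19.8 and 38.7 FPKM in CeD and 13.04, 21.6 and 21.0 FPKM in control libraries. CeD 3 was highest on both. CeD+GR 3, with the lowest Hox sum, had the highest smooth muscle sum among the CeD+GR and control libraries, while CeD+GR 2, with the highest Hox sum, lay between other libraries on both. The sum of 10 fibroblast and stroma markers was 66.2, 84.3 and 70.8 FPKM in CeD+GR, 104, 50.6 and 101 FPKM in CeD and 82.2, 36.3 and 42.8 FPKM in control libraries, and was highest in CeD 1, where Hox levels were low. The part of tissue composition in the Hox levels was not tested.

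The mix of paralogue groups differed between libraries as well as the total. Groups 6 to 13 gave 29.6%, 33.7% and 5.63% of the Hox reads in CeD+GR libraries (exact Clopper-Pearson 95% intervals 24.9 to 34.7, 31.3 to 36.1 and 2.60 to 10.4). The same share was 10.7%, 26.0% and 15.3% in CeD libraries (7.94 to 14.1, 22.6 to 29.6 and 13.4 to 17.3) and 11.7%, 18.1% and 9.09% in control libraries (8.99 to 15.0, 15.4 to 21.0 and 7.06 to 11.5). CeD+GR thus held both the highest shares and the lowest one. Groups 4 and 5 gave 54.3%, 50.8% and 54.4% of Hox reads in CeD+GR, 63.5%, 52.9% and 66.7% in CeD and 67.7%, 68.4% and 75.04% in control libraries. In this share all CeD+GR libraries and all CeD libraries lay below all control libraries, and CeD+GR and CeD libraries overlapped. CeD 3 and control 1 were close, at 66.7% and 67.7%. The value of CeD+GR 3 rested on 87 of 160 reads (46.3 to 62.3). This block holds the groups that were highest in these same data, so its share is a description and was not tested. For such shares 0.1 is the smallest p that an exact permutation test of 3 libraries against 3 allows. Groups 1 to 3 gave 16.1%, 15.5% and 40.0% in CeD+GR, 25.8%, 21.2% and 18.0% in CeD and 20.5%, 13.5% and 15.9% in control libraries. Outside groups 4 and 5, more of the reads thus came from high numbers in CeD+GR 1 and 2 and from low numbers in CeD+GR 3.

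**Figure D3:**
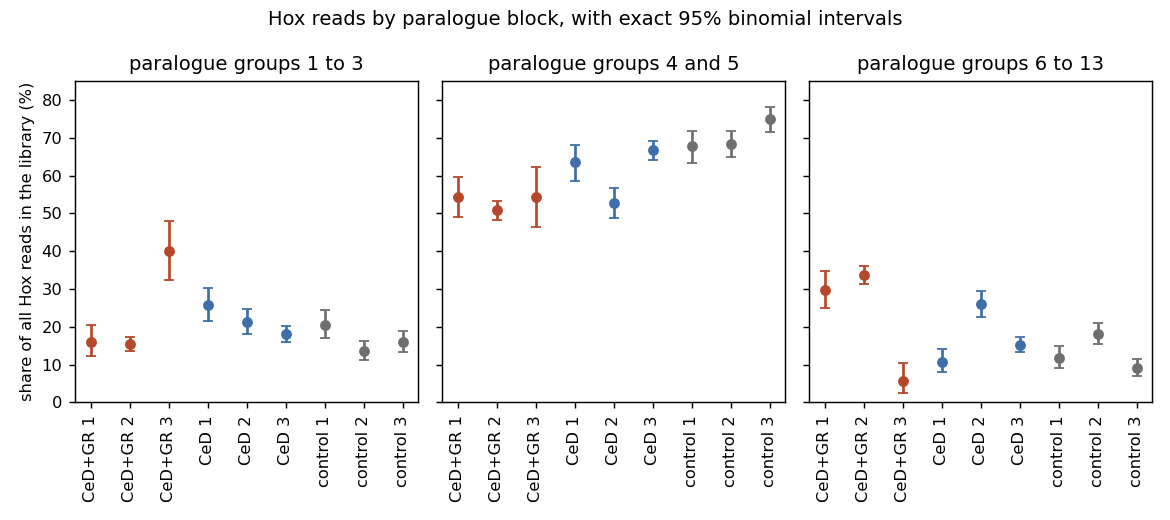
Share of each library's Hox reads (percent) from paralogue groups 1 to 3, 4 and 5, and 6 to 13, as points with exact 95% binomial intervals that cover counting error only. Groups 6 to 13 range from 5.63% in CeD+GR 3 to 33.7% in CeD+GR 2. Groups 4 and 5 are lower in the 3 CeD+GR and the 3 CeD libraries than in the 3 control libraries. CeD+GR and CeD libraries overlap.

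The share of groups 6 to 13 was also read within single clusters. Within Hoxb, groups 6 to 13 gave 28.6%, 44.2% and 1.45% of the reads in CeD+GR, 11.5%, 32.5% and 23.9% in CeD and 11.0%, 19.1% and 5.13% in control libraries. Within Hoxa the share was 25.9%, 16.4% and 2.67% in CeD+GR, 6.05%, 19.4% and 5.03% in CeD and 3.48%, 13.5% and 2.61% in control libraries. CeD+GR 2 was highest within Hoxb but CeD+GR 1 within Hoxa, and CeD+GR 3 was lowest within Hoxb and at the low end within Hoxa. Hoxc gave as few as 11 reads in a library and Hoxd 5 to 49, and their intervals were wide.

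Other factors that mark position along the gut were set beside these shares. Pdx1 had 1.59, 0.118 and 46.0 FPKM in CeD+GR, 25.3, 12.0 and 6.64 FPKM in CeD and 27.2, 26.0 and 26.3 FPKM in control libraries. The pair of libraries with the highest share of groups 6 to 13 had the lowest Pdx1, and the library with the lowest share had the highest. Barx1, a factor of the stomach mesenchyme, was at 2.89 FPKM in CeD+GR 3 and listed at 0 in the other 8 libraries. Osr1, a mesenchymal factor, had 0.469, 6.98 and 0.415 FPKM in CeD+GR, 0.869, 4.17 and 8.55 FPKM in CeD and 1.38, 3.41 and 2.30 FPKM in control libraries, in nearly the order of the Hox sum. Whether these levels reflect where along the gut each piece was cut was not tested.

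**Figure D4:**
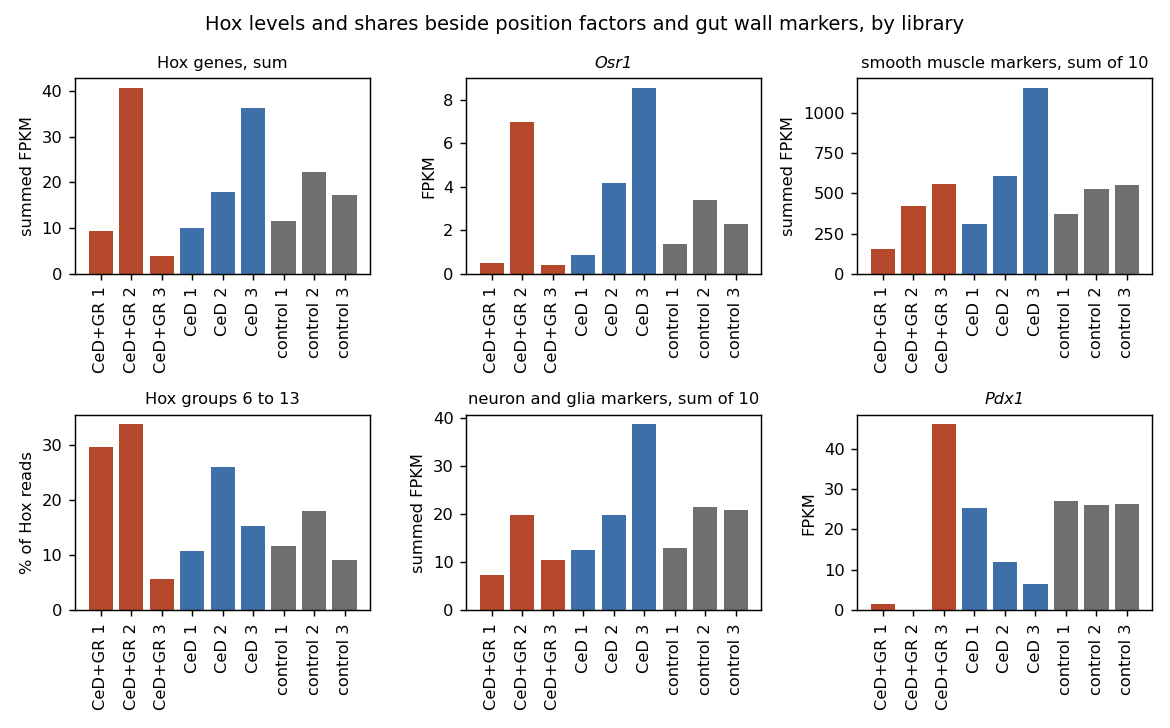
Summed Hox FPKM, FPKM of Osr1, the summed FPKM of 10 smooth muscle markers, the share of Hox reads from paralogue groups 6 to 13 (percent), the summed FPKM of 10 enteric neuron and glia markers, and FPKM of Pdx1, as bars from 0 with 1 bar per library. CeD+GR 2 and CeD 3 have the highest Hox sums and Osr1 levels, and CeD+GR 1 and 2 have the highest shares of groups 6 to 13 and the lowest Pdx1.

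Between the groups no Hox gene passed the test. In all 3 comparisons limma gave 0 of the 9 tested Hox genes an adjusted p under 0.05, as for all 14683 genes tested (0% called), and the adjusted p was 1 for each Hox gene. At an unadjusted p under 0.05, 425 genes in CeD+GR against CeD, 400 in CeD+GR against control and 103 in CeD against control passed with limma. With limma-voom on the recovered reads 0 genes were called and 368, 313 and 62 passed unadjusted. The 3 comparisons share libraries, so their estimates are not independent of each other. A p that misses the threshold does not show that levels did not differ.

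CeD+GR against CeD sets the nanoparticles against no nanoparticles within the DTH model. Here 1 of the 9 Hox genes had a positive estimate, against 51.1% of all genes tested, and the median log2 fold change was -0.47 over the Hox genes and 0.01 over all genes. Hoxa2 had the smallest p, with a log2 fold change of -0.70 (SE 0.30, unadjusted p 0.0473, adjusted p 1). It was the one Hox gene below an unadjusted p of 0.05, where 1.76% of all genes passed in this direction, and the one with no overlap between the groups. Of all genes 3.04% lay lower without overlap and 3.01% higher, and 1.14% passed unadjusted as higher. Over the alternatives its estimate lay between -1.12 and -0.45 and its unadjusted p between 0.0289 and 0.185. Hoxb5 had an estimate of -0.91 (SE 0.56), Hoxa5 of -0.94 (SE 0.81) and Hoxa4 of -0.66 (SE 0.57). Those of Hoxa3 and Hoxb6 were -0.34 (SE 0.41) and -0.47 (SE 0.81), each with overlapping groups. The positive estimate was that of Hoxb7, which entered the tests only through its level in CeD+GR, with means of 1.04 FPKM in CeD+GR, 0.479 FPKM in CeD and 0.157 FPKM in control libraries, so its direction is no result. Leaving out single libraries changed the size: without CeD+GR 2 the median was -0.84 with 0 of 9 positive, without CeD+GR 3 it was -0.057 with 4 of 9 positive, and without CeD 3 it was -0.16 with 3 of 9 positive. With no filter on low values, 18 of the 32 read members had a positive estimate and the median was 0.037. Members read in 1 library alone had a fixed sign. It was positive for Hoxb1, Hoxb9 and Hoxd1 (CeD+GR 2) and negative for Hoxc10 (CeD 2) and Hoxd4 (CeD 1). The balance of signs was seen for the tested members only, and the count with no filter does not test it. Markers of the gut wall stood lower in the same comparison, with 1 of 10 smooth muscle genes positive (median -0.73, 3 lower at an unadjusted p under 0.05) and 2 of 9 enteric neuron and glia genes (median -0.67, 2 lower unadjusted). Fibroblast and stroma markers had 2 of 9 positive (median -0.16). Of the endothelial markers 6 of 6 had positive estimates (median 0.69, 1 higher unadjusted). Lower levels were not particular to these lists, as enterocyte markers had 0 of 10 positive (median -0.67), while the epithelial list had 6 of 10 (median 0.01). Their part in the Hox estimates was not tested.

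CeD+GR against control gave 3 of 9 positive Hox estimates, against 49.7% of all genes, with a median of -0.49 over the Hox genes and -0.00 over all genes. Hoxa2 had an estimate of -0.57 (SE 0.30, unadjusted p 0.0943), with no overlap between the groups, where 3.04% of all genes lay lower and 2.54% higher. No Hox gene had an unadjusted p under 0.05, where 1.31% of all genes passed as higher and 1.41% as lower. Hoxb5 and Hoxb4 had -0.98 (SE 0.56) and -0.72 (SE 0.55). Hoxa5 and Hoxa4 had -0.73 (SE 0.81) and -0.49 (SE 0.57). That of Hoxb7 was 0.86 (SE 0.67), and since this gene passed the filter only through CeD+GR, it had to lie higher there. Groups overlapped for every tested member but Hoxa2. Without CeD+GR 3 the Hox median was 0.15 with 5 of 9 positive, and without CeD+GR 2 it was -0.76 with 1 of 9 positive. limma-voom gave 1 of 9 positive (median -0.72), and with no filter on low values 22 of 32 were positive (median 0.098). Among the 32, Hoxb1, Hoxb9 and Hoxd1 again had a fixed positive sign. Hoxc13, read in control libraries alone, had a fixed negative one. Smooth muscle markers had 1 of 10 positive estimates (median -0.56) and enteric neuron and glia markers 2 of 9 (median -0.48). Other lists of the gut wall went the other way. Fibroblast and stroma markers had 8 of 9 positive (median 0.30, 1 higher unadjusted), and endothelial markers 6 of 6 (median 0.59, 1 higher unadjusted). Enterocyte markers had 0 of 10 positive (median -0.62).

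CeD against control sets the DTH model with enhanced stimulation against wild type without it. Of the 9 Hox genes 7 had a positive estimate, against 50.4% of all genes, and the median log2 fold change was 0.21 over the Hox genes and 0.00 over all genes. None had an unadjusted p under 0.05, where 0.272% of all genes passed as higher and 0.429% as lower, and the groups overlapped for all 9, where 2.2% of all genes lay higher and 2.49% lower without overlap. Hoxb6 had an estimate of 0.64 (SE 0.81), Hoxb4 of -0.42 (SE 0.55) and Hoxa3 of 0.31 (SE 0.41). Those of Hoxb7, Hoxa2 and Hoxc4 were 0.47 (SE 0.67), 0.13 (SE 0.30) and 0.23 (SE 0.66). Without CeD 3 the median was -0.25 with 3 of 9 positive, and with no filter on low values 21 of 32 were positive (median 0.049). Among the 32, Hoxc10 and Hoxd4 were read in CeD alone and Hoxc13 in control alone, so their signs were fixed. Smooth muscle markers had 8 of 10 positive estimates (median 0.36) and enteric neuron and glia markers 7 of 9 (median 0.24). Fibroblast and stroma markers had 8 of 9 positive (median 0.64, 1 higher unadjusted), and endothelial markers 2 of 6 (median -0.13).

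**Figure D5:**
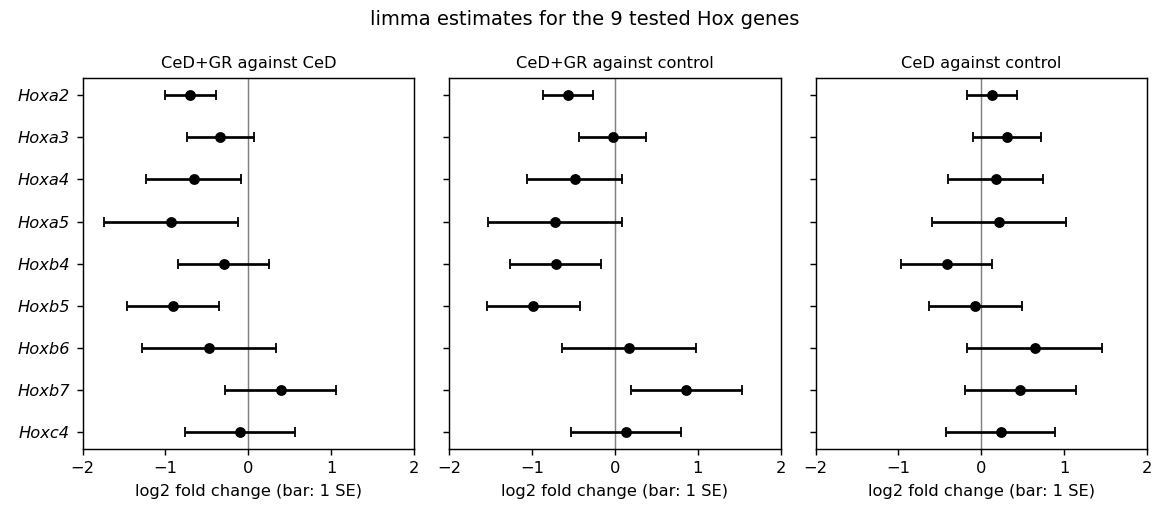
limma log2 fold changes of log2(FPKM + 0.5) for the 9 tested Hox genes in the 3 comparisons, with bars of 1 SE on each side; the first group named is on top of the fold change. Hoxa2 in CeD+GR against CeD, at -0.70, is the point farthest from 0 relative to its SE, and no gene has an adjusted p under 0.05.

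Genes that work with or on the Hox genes did not pass either. Of the 11 TALE cofactors 9 were tested and 0 were called in any comparison, with 0 at an unadjusted p under 0.05. In CeD+GR against CeD 5 of the 9 had positive estimates (median 0.05), in CeD+GR against control 6 (median 0.07) and in CeD against control 5 (median 0.05). Meis1, a partner of Hox proteins, had an estimate of -0.33 (SE 0.48) in CeD+GR against CeD and 0.38 (SE 0.48) in CeD against control. Meis2 and Pbx3 were at 8.05 and 5.54 FPKM in CeD+GR 3, where the Hox genes were lowest, against at most 2.77 and 2.27 FPKM in any other library.

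Of the 21 ParaHox and other position factors 12 were tested and 0 were called. Positive estimates numbered 3 in CeD+GR against CeD (median -0.20), 4 in CeD+GR against control (median -0.31) and 6 in CeD against control (median -0.02). Pdx1 had an estimate of -1.75 (SE 1.31) in CeD+GR against CeD and -2.79 (SE 1.31) in CeD+GR against control. Osr1 had -1.04 (SE 0.90) in CeD+GR against CeD. Isl1, a factor of the stomach mesenchyme among other tissues, had 0.80 (SE 0.37) in CeD+GR against control. Its means were 0.908 FPKM in CeD+GR, 0.383 FPKM in CeD and 0.271 FPKM in control libraries. Isl1 thus passed the filter only through CeD+GR, so its direction is no result.

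All 21 listed Polycomb and Trithorax genes were tested, with 0 called. In CeD+GR against CeD 8 had positive estimates (median -0.05), in CeD+GR against control 7 (median -0.15) and in CeD against control 8 (median -0.06). Cbx2, a Polycomb subunit that reads histone methylation, had 1.38, 1.03 and 0.647 FPKM in CeD+GR, 1.56, 1.78 and 1.58 FPKM in CeD and 1.52 to 2.28 FPKM in control libraries. Its CeD+GR values lay below all others, and so did those of Suz12 and Kmt2b in the same list. Of all genes, 3.04% lay lower without overlap against control and 3.04% against CeD. Cbx2 had a log2 fold change of -0.70 (SE 0.26, unadjusted p 0.024, adjusted p 1) in limma against control. It was the only gene of these lists at an unadjusted p under 0.05. Of the 17 genes of retinoic acid supply and sensing 10 were tested and 0 were called, with 5, 4 and 3 positive in the same order of comparisons (medians 0.01, -0.17 and -0.03). Rarg, a retinoic acid receptor, had an estimate of 0.71 (SE 0.39) in CeD+GR against control.

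Of 18 noncoding genes listed from the Hox clusters 16 were in the table, 7 of them with no reads. Hotairm1, an antisense RNA of the Hoxa cluster, was the one tested. It had 0.252, 0.124 and 0.418 FPKM in CeD+GR, 0.547, 0.339 and 1.13 FPKM in CeD and 0.429, 0.800 and 0.752 FPKM in control libraries, from 80 reads in all. Its CeD+GR values overlapped those of CeD and lay below all control values, where 3.04% of all genes lay lower without overlap. The estimates were -0.60 (SE 0.35) against control and -0.58 (SE 0.35) against CeD. Hotairm1 passed the filter only through CeD and control, with means of 0.67 and 0.66 FPKM, against 0.26 FPKM in CeD+GR. Its lower level in CeD+GR is therefore no result. Hoxb5os had reads in all 6 CeD and control libraries and was listed at 0 in CeD+GR 2 and 3, where Hoxb5 itself had 2.05 and 0.198 FPKM. Halr1, near the Hoxa cluster, was highest in CeD+GR 2 at 0.777 FPKM, and Haglr, at the Hoxd cluster, likewise at 0.252 FPKM. The hairpins of Mir10a, Mir10b, Mir196a-1, Mir196a-2 and Mir196b had no reads, in libraries whose fragments were selected for length.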

How the data were processed

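Bulk RNA of 9 duodenum libraries was analysed, 3 per group by the labelled treatment. The authors deposited FPKM per gene. Per the submitters' processing notes the tools include fastp, HISAT2 2.0.5, featureCounts 1.5.0-p3 and DESeq2 1.20.0, with build mm10. The strand setting of the counting was not given in the sources used here. Reads were recovered as whole multiples of 1 step per library (100.0% of values, tolerance 0.1 reads). Scaling between libraries was already in these FPKM, as further median-of-ratios factors were 1.008 in each. Genes averaging 0.5 FPKM or more were compared as log2(FPKM + 0.5) with limma 3.58.1 (R 4.3.3) in 1 group-means model of 9 libraries, with a mean-variance trend, two-sided, Benjamini-Hochberg over 14683 genes, threshold 0.05. This pseudocount understates changes of low genes. The median SE was 0.35 on the log2 scale. The steps were tested on simulated data. The members and lists were chosen with earlier results of these data known. All 9 tested members may be named, with estimates for the 6 smallest p per comparison, and up to 3 genes per list. Some items are not reported here. Alternatives were 17, plus 3 added after the data were seen.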

Additional observations from a re-analysis of the deposited data

How the results depend on the processing

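No Hox gene was called under any of the 17 planned or 3 added alternatives. The median Hox estimates moved by less than the spread within groups (0.81 on the log2 scale). That spread is larger than the medians themselves, so this does not show that they were stable, and their sign changed. In CeD against control the median went from 0.21 to -0.25 without CeD 3. In CeD+GR against control it went from -0.49 to 0.15 without CeD+GR 3 and to 0.098 with no filter. With no filter it went from -0.47 to 0.037 in CeD+GR against CeD. The medians with no filter include members whose sign was fixed, as they were read in 1 group alone. The number of genes called in CeD+GR against control was 0 to 1 with 1 library left out, the 1 being without control 1. Leaving out each library in turn, these log2 estimates changed sign. In CeD against control Pbx2 ranged from -0.44 to 0.0067, Gata5 from -0.42 to 0.021, Hotairm1 from -0.29 to 0.18, Hoxa2 from -0.12 to 0.31, Hoxc4 from -0.31 to 0.57 and Meis1 from -0.028 to 0.65. In CeD+GR against CeD Meis1 ranged from -0.62 to 0.12, Hoxb6 from -1.40 to 0.20 and Meis3 from -0.044 to 0.68. In CeD+GR against control Hoxa5 ranged from -1.61 to 0.15 and Tgif1 from -0.0022 to 0.70. Rescaled to TPM, Hotairm1 was 0.038 in CeD against control. With CeD 1 and CeD+GR 3 left out together, Pbx2 was 0.0067, Gata5 0.021 and Hotairm1 0.025 in CeD against control, Meis3 -0.088 in CeD+GR against CeD, and Hoxa5 0.15 and Tgif1 -0.0022 in CeD+GR against control. The cause was not tested. Libraries with the same replicate number did not all deviate together, with correlations of -0.12 and -0.11 for CeD+GR 3 and 0.25 to 0.71 for the other pairs. With the replicate block 0 genes were called in each comparison, and 805, 643 and 193 had an unadjusted p under 0.05 in CeD+GR against CeD, CeD+GR against control and CeD against control. With no filter on low values 32 Hox genes were compared and 0 were called, and for members with few reads a difference was not detectable at this depth.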
